A study of Mus musculus with 30 samples.

Results

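The 10 genes described here encode negative regulators of the ERK pathway, 5 dual specificity phosphatases (Dusp1, Dusp3, Dusp4, Dusp5 and Dusp6) and 5 proteins of the Sprouty family (Spry1, Spry2, Spry4, Spred1 and Spred2). They were taken by symbol from a table of 24883 rows, all 10 were present once, and all 10 passed the filter of a mean of at least 1 FPKM that kept 13184 rows for testing. FPKM are fragment counts scaled to transcript length and to how many fragments each library had mapped. The table came from dorsal CA1 of 30 male C57BL/6J mice of 2 to 4 months, 6 in each of 5 groups, with 1 library per mouse. Trained mice explored objects in the object location memory task, and their tissue was collected 1 h after training.

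VEH-HC mice received the transfection reagent jetPEI without plasmid, were only handled and stayed in the home cage. The paper's task protocol habituates mice to the chamber on several days before training. Comparisons with VEH-HC therefore include that exposure as well as training. VEH-T10 and VEH-T3 mice received the same vehicle and were trained for 10 min, a threshold period, or 3 min, a sub-threshold period. Y397F-T10 mice carried a plasmid for CREST, a subunit of the neuronal BAF chromatin remodelling complex, and were trained for 10 min. In this plasmid the tyrosine named in Y397F is replaced by phenylalanine. Y397D-T3 mice carried the form with aspartic acid at that site and were trained for 3 min. Sample titles call these forms phospho-null and phospho-mimetic. The paper could not detect phosphorylation of this tyrosine and calls both forms point mutants only. Both constructs were HA-tagged mouse Crest under a shortened CaMK2 promoter, which is active in excitatory neurons, and the mice kept their own Crest gene. The groups analysed here hold no untrained mice with a plasmid and no wild-type Crest plasmid, so each plasmid was compared with vehicle within 1 training period.

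ERK is activated in neurons by calcium entry and by growth factor receptors, and it carries the signal to transcription factors that switch on activity-dependent genes needed for lasting memory. Several of its targets encode its own brakes: the phosphatases remove phosphate from ERK and related kinases, in the nucleus or in the cytoplasm, and Sprouty and Spred proteins act upstream, between the receptor, Ras and Raf. Because such genes are transcribed soon after ERK is active, their RNA is widely used as a readout of recent pathway activity.

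Before the members are described, a few properties of the libraries matter. Depth relative to the median library, estimated from the steps in low values, ran from 0.811 to 1.24. All 6 CA1 pyramidal markers were detected, with summed levels of 152 to 236 FPKM. The 6 dentate granule cell markers were detected too, with summed levels of 66.6 to 188 FPKM. Sample titles name the dorsal hippocampus where the paper names dorsal CA1. The Ss18l1 row, which is Crest, averaged 12.3 ± 0.745 FPKM in VEH-HC, 12.6 ± 0.920 in Y397F-T10 and 13.6 ± 0.471 in Y397D-T3 (SD, n = 6), with overlapping ranges, and RNA from the plasmid was not separated from endogenous RNA. The sum of 6 choroid plexus markers ranged from 914.6 to 5588 FPKM in VEH-HC, whereas the group medians of trained mice were 55.8 to 1949 FPKM and 0 of the 6 markers passed the test. In the trained mean 2 of 6 inhibitory neuron markers, 1 of 6 thalamus markers and 1 of 8 endothelial and mural markers fell, and 0 passed in the lists for CA1 and dentate neurons, astrocytes, oligodendrocytes, their precursors and microglia (6 each). Of the same lists in single groups, Y397D-T3 mice had 1 CA1 marker higher and 2 thalamus and 1 endothelial or mural marker lower, VEH-T3 mice 2 endothelial or mural markers higher, and each 10 min group 1 thalamus marker lower. The part of these cells in the results was not tested. In 4 trained libraries the summed astrocyte markers and the summed oligodendrocyte precursor markers both lay below every VEH-HC library. These were VEH-T10 mouse 1, Y397F-T10 mouse 1, VEH-T3 mouse 1 and Y397D-T3 mouse 3, with astrocyte sums of 432 to 555 FPKM against 667 to 1082 in VEH-HC. They are called the glia-low libraries below, and results are also given without them, a choice made after seeing the data. The rule could take out trained libraries only, never one of VEH-HC. Dusp4 and Dusp6 went with both of these marker sums (below), so larger differences without these libraries are no independent support. In bulk tissue, fewer cells of a type and less RNA per cell cannot be told apart.

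Over all 30 libraries, Dusp3 was the most abundant member per length, at 37.4 ± 1.78 FPKM (SD, n = 30). Spred2 followed at 28.8 ± 2.60, Spred1 at 23.7 ± 1.64 and Dusp6 at 23.2 ± 4.04, and the last 2 differed by less than their spread. Spry2 stood at 17.3 ± 1.43 FPKM, Dusp5 at 11.8 ± 1.92, Dusp4 at 10.4 ± 1.94, Dusp1 at 7.26 ± 1.45, Spry1 at 5.87 ± 1.04 and Spry4 at 3.20 ± 0.300. The means of Dusp5 and Dusp4 also differed by less than the SD of either, and those of Dusp1 and Spry1 by less than the SD of Dusp1 but more than that of Spry1. The coefficient of variation over the 30 libraries was lowest for Dusp3 (4.77%) and Spred1 (6.92%), and highest for Dusp1 (19.9%) and Dusp4 (18.6%).

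Promoter sequence from RefSeq (GRCm38.p6) was matched for 8 of the 10 members, without Dusp4 and Spry4, as 250 bases before to 50 bases after the annotated start. Motifs of the factors that act downstream of ERK and CREB were searched on both strands. They were the cyclic AMP response element TGACGTCA, its shorter form TGACGTC, which lies inside the full element, its core TGACG, the AP-1 site TGANTCA, the EGR site GCGGGGGCG, the ETS site CCGGAAG, and the CArG box bound by serum response factor. Dusp1, Dusp5 and Spred2 were the members with a match. Stretches that held the full or shorter element or a CArG box are shown 5′ to 3′ on the strand of the gene, with that motif in capitals.
Dusp1, chr17:26508645-26508674, minus strand: tcctaggccgaTGACGTCtttgcttttggc
Dusp1, chr17:26508597-26508626, minus strand: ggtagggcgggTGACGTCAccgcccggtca
Dusp5, chr19:53529058-53529087, plus strand: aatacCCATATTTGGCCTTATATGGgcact
Spred2, chr11:19924378-19924407, plus strand: gccgctgggaaGACGTCAtcgcttccgccc
The capitals begin 191 and 143 bases before the start of Dusp1, 82 before that of Dusp5 and 53 before that of Spred2, whose capitals are the shorter element read on the other strand. The full element was found in 1.80% of 32544 promoters, the shorter form in 3.22% and a CArG box in 1.64%. The core TGACG was found in 20.9% of promoters and also matched in these 3 members alone. In Dusp5 the core lay 55 to 51 bases before the start, outside the stretch shown. The 2 adjacent CArG boxes of Dusp5 form the run of capitals. AP-1, EGR and ETS sites, held by 7.79%, 2.93% and 8.91% of promoters, matched in none of the 8 members. The windows of Dusp6, Spred1, Dusp3, Spry1 and Spry2 held none of the motifs named here, which says only that these letters are absent from this stretch.

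**Figure D1:**
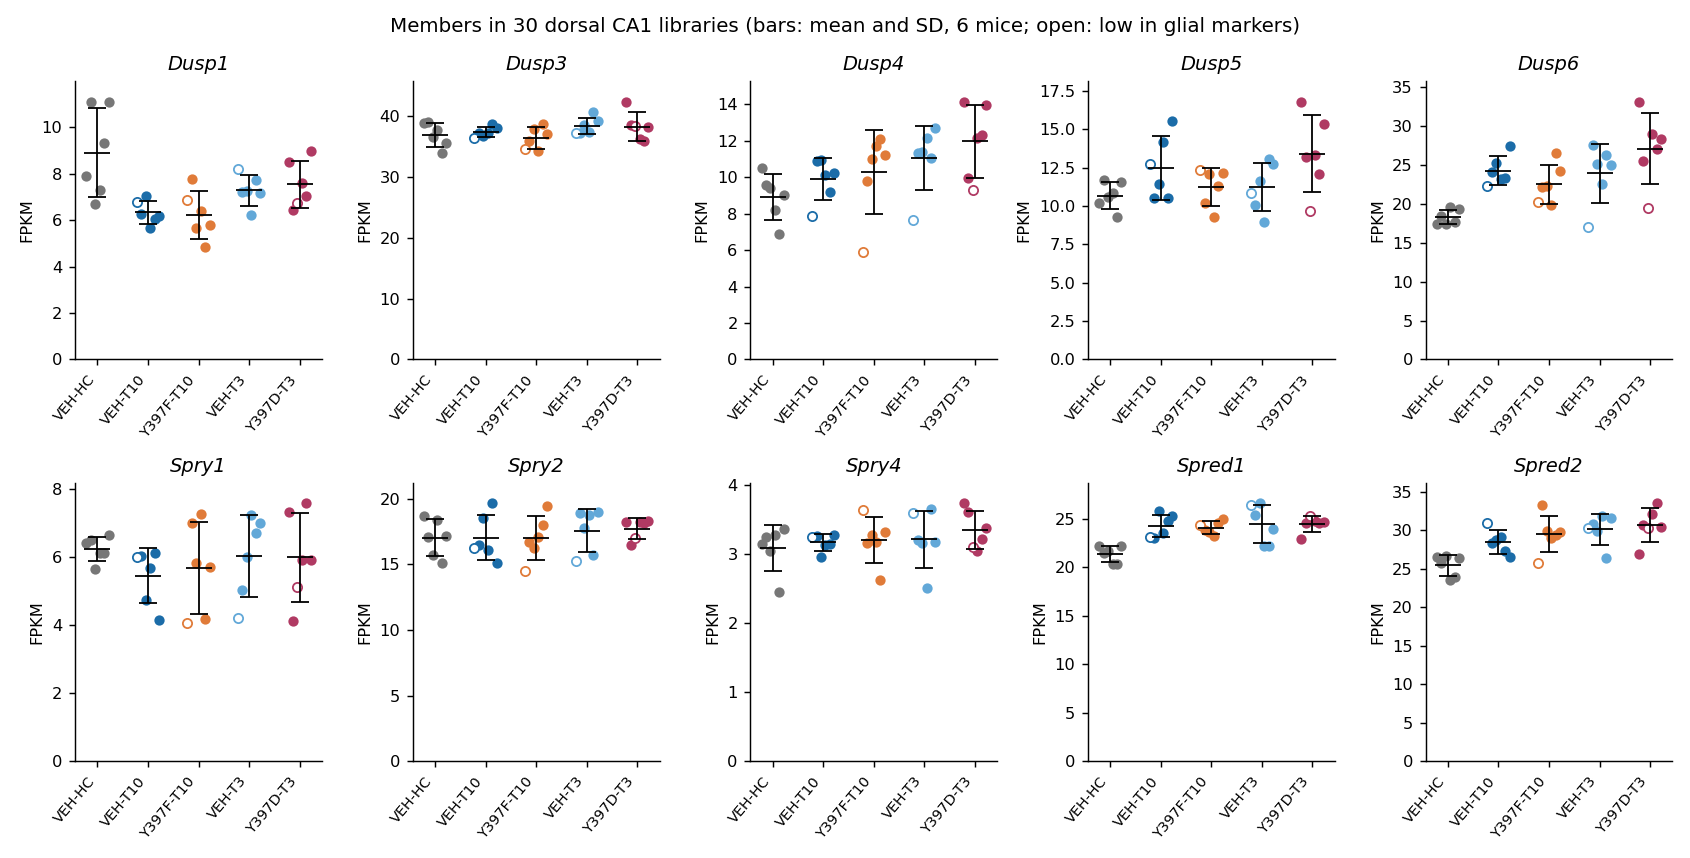
FPKM of each member (vertical axis, from 0) in the 6 mice of each group, with bars for the mean and SD and open circles for the 4 glia-low libraries. Dusp6, Spred1 and Spred2 sit above VEH-HC in the trained groups, Dusp1 sits below it, and Dusp3, Spry2 and Spry4 stay near the VEH-HC level.

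Compared with the home cage, the trained mice had more Dusp6, Spred1 and Spred2 RNA and less Dusp1 RNA. In the mean of the 4 trained groups against VEH-HC, 3 of the 10 members rose and 1 fell at an adjusted p under 0.05 (limma on log2(FPKM + 1), Benjamini-Hochberg over all rows tested), where 3.86% of all rows rose and 5.79% fell, or 9.66% together. With VEH-T10 mice taken alone 1 member rose and 0 fell, where 0.319% of all rows rose and 0.501% fell (0.819% together). With Y397F-T10 mice 1 member rose and 1 fell (0.47% and 0.66% of all rows, 1.13% together). VEH-T3 mice had 3 members that rose and 0 that fell (2.23% and 2.94%, 5.17% together), and Y397D-T3 mice also had 3 and 0 (3.91% and 3.16%, 7.07% together). At an unadjusted p under 0.05 the same 5 comparisons gave 5, 4, 4, 5 and 5 members, where 25.3%, 14.9%, 16.9%, 21.6% and 24.9% of all rows passed. The 5 comparisons share the VEH-HC mice. The median log2 fold change of the 10 members in the trained mean was 0.10, against -0.04 over all rows tested. Of all called rows in the trained mean 40% were higher, 66.3% after libraries were centred on their medians and 76.6% after the trend with transcript length and GC content was removed. For single trained groups these shares were 38.9% to 55.3%, 70.1% to 73.6% and 76.6% to 86.5%. After centring, the members in the trained mean still gave 3 that rose and 1 that fell.

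**Figure D2:**
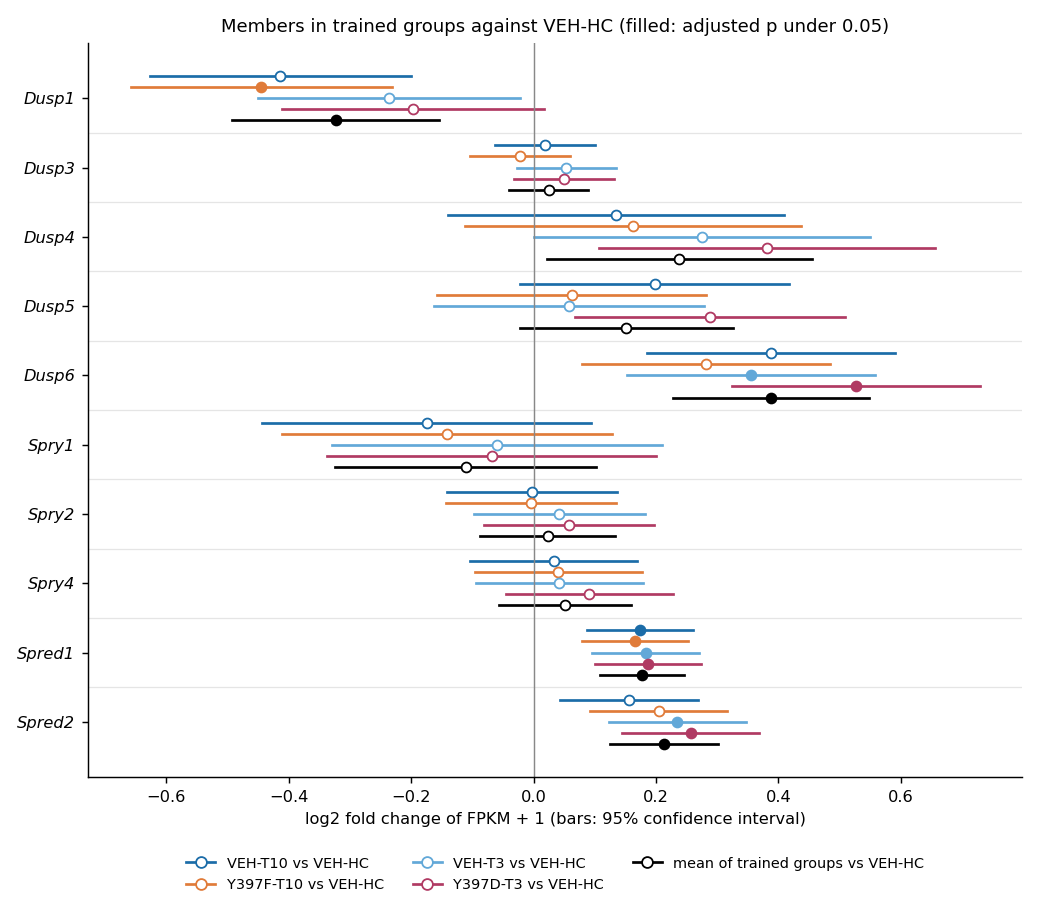
Fitted log2 fold change of FPKM + 1 (horizontal axis) of each member in each trained group and in the mean of the trained groups against VEH-HC, with 95% confidence intervals; filled points have an adjusted p under 0.05. Dusp6, Spred1 and Spred2 lie above 0 and Dusp1 below 0 in all 4 trained groups.

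Dusp6 encodes a cytoplasmic phosphatase with high selectivity for ERK, and is among the best known transcriptional feedback targets of the pathway. The gene lies at chr10:99263231-99267489 (GRCm38). Home cage mice ranged from 17.4 to 19.5 FPKM around a median of 18.05. VEH-T10 mice ranged from 22.3 to 27.45 FPKM (median 23.7) and Y397F-T10 mice from 19.85 to 26.5 (22.3). VEH-T3 mice ranged from 17.0 to 27.6 FPKM (25.1) and Y397D-T3 mice from 19.5 to 33.1 (27.7). All 6 mice of VEH-T10 and of Y397F-T10 therefore stood above the highest home cage mouse, a separation upward found in 0.789% and 0.554% of all rows. In VEH-T3 and Y397D-T3, 5 of 6 did, and the exceptions, at 17.0 and 19.5 FPKM, were glia-low libraries.

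Group means of Dusp6 rose in the order VEH-HC (18.3 ± 0.924 FPKM), Y397F-T10 (22.5 ± 2.51), VEH-T3 (23.9 ± 3.79), VEH-T10 (24.3 ± 1.84) and Y397D-T3 (27.1 ± 4.51), and the neighbours among trained groups overlapped. Dusp6 rose by 0.53 ± 0.10 log2 (SE) in Y397D-T3 (limma, adjusted p = 0.00245) and by 0.35 ± 0.10 in VEH-T3 (adjusted p = 0.0368). For VEH-T10 mice the difference was 0.39 ± 0.10 (adjusted p = 0.0526) and for Y397F-T10 mice 0.28 ± 0.10 (adjusted p = 0.147), neither of which passed the threshold. The VEH-T10 difference passed after median centring (0.42, adjusted p = 0.0390), after removal of the length and GC trend (0.43, adjusted p = 0.0106) and with only the groups compared in the fit (adjusted p = 0.0126). In the trained mean Dusp6 rose by 0.39 ± 0.08 (adjusted p = 0.00356), with 22 of 24 trained mice above the highest home cage mouse.

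Leaving out the glia-low libraries, which removes trained mice only, enlarged the Dusp6 difference in each trained group. For 10 min of training it was then 0.41 with vehicle (adjusted p = 0.000634, where 5.94% of all rows were called) and 0.31 with Y397F (adjusted p = 0.00594). For 3 min it was 0.45 with vehicle (adjusted p = 0.000124) and 0.61 with Y397D (adjusted p = 1.14e-05). The Y397D-T3 call held in all 30 fits that left out 1 library, with adjusted p between 0.000695 and 0.00721. The VEH-T3 call held in 21 of 30, and was lost without VEH-HC mice 1 to 5 or VEH-T3 mice 2, 3, 5 or 6, with a highest adjusted p of 0.113. It was also lost with only the groups compared in the fit (adjusted p = 0.0955). Among mice of the same group, Dusp6 went with the summed markers of 5 of 10 cell types or regions, namely oligodendrocyte precursors (r = 0.65), oligodendrocytes (0.63), microglia (0.55), endothelial and mural cells (0.54) and astrocytes (0.51), with the same sign within all 5 groups. The adjusted p of r were 0.0220 for precursors and 0.0315, 0.0315, 0.0394 and 0.0434 for the others, and no rho passed (0.37 to 0.60, adjusted p from 0.0795 to 0.319). Without the 2 farthest libraries r was 0.67, 0.49, 0.41, 0.43 and 0.50 in the same order. Their part in the Dusp6 differences was not tested.

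Dusp1 encodes a nuclear, immediate-early phosphatase that acts on ERK, p38 and JNK, and it too is a classic activity-induced gene. RefSeq places it at chr17:26505591-26508472. It moved the other way from Dusp6. Home cage mice ranged from 6.71 to 11.1 FPKM around a median of 8.61. VEH-T10 mice lay between 5.67 and 7.05 FPKM (median 6.23) and Y397F-T10 mice between 4.83 and 7.79 (6.08). VEH-T3 mice lay between 6.21 and 8.22 FPKM (7.22) and Y397D-T3 mice between 6.44 and 9.003 (7.33). The home cage group was the most dispersed, with mice 2 and 6 both at 11.1 FPKM, and every trained group overlapped it. Of 24 trained mice, 10 lay below the lowest and 1 above the median home cage mouse.

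Dusp1 fell by 0.44 ± 0.10 log2 in Y397F-T10 (limma, adjusted p = 0.0358) and by 0.32 ± 0.08 in the trained mean (adjusted p = 0.0147). The fold change of VEH-T10 mice was -0.41 (adjusted p = 0.0509), that of VEH-T3 mice -0.24 (adjusted p = 0.178) and that of Y397D-T3 mice -0.20 (adjusted p = 0.241). The trained-mean call was lost without VEH-HC mouse 2 (adjusted p = 0.0699) or mouse 6 (adjusted p = 0.0561), and when the trend with transcript length and GC content was removed from each library (-0.23, adjusted p = 0.0889). The Y397F-T10 call was lost in 8 of 30 fits, namely without VEH-HC mouse 2, 4, 5 or 6 or Y397F-T10 mouse 3, 4, 5 or 6, with adjusted p up to 0.103. It was also lost after median centring (-0.42, adjusted p = 0.0561), with only the groups compared in the fit (adjusted p = 0.133), after removal of the length and GC trend (-0.35, adjusted p = 0.116) and with the choroid plexus marker level as a covariate (-0.41, adjusted p = 0.0509). Without the glia-low libraries Dusp1 fell in both 10 min groups, by 0.43 in VEH-T10 (adjusted p = 0.0217) and by 0.47 in Y397F-T10 (adjusted p = 0.0116). With the choroid plexus marker level as a covariate the trained-mean difference was -0.29 (adjusted p = 0.0483).

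Dusp4, a nuclear phosphatase of ERK, passed in no comparison with all 30 libraries. Its group means were 8.94 ± 1.26 FPKM for VEH-HC, 9.88 ± 1.16 for VEH-T10, 10.3 ± 2.29 for Y397F-T10, 11.1 ± 1.77 for VEH-T3 and 11.98 ± 2.00 for Y397D-T3, and each overlapped the others. Of 24 trained mice, 15 lay above the highest home cage mouse (10.5 FPKM). The lowest mouse of each trained group was its glia-low library, at 7.90, 5.90, 7.68 and 9.31 FPKM. The largest difference from VEH-HC was 0.38 ± 0.13 log2, in Y397D-T3 (limma, adjusted p = 0.0776).

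Leaving out the glia-low libraries takes away the lowest Dusp4 value of each trained group, so each trained mean rises by construction. Without them Dusp4 rose in 3 of the 4 trained groups. Its rise was 0.30 for Y397F-T10 (adjusted p = 0.0310), 0.37 for VEH-T3 (adjusted p = 0.00513), 0.45 for Y397D-T3 (adjusted p = 0.00138) and 0.33 for the trained mean (adjusted p = 0.00110). In those fits 6.73%, 12.5%, 10.6% and 15.7% of all rows were called, more than with all libraries. The Dusp4 difference also passed after removal of the length and GC trend, at 0.48 in Y397D-T3 (adjusted p = 0.0121; 0.42, adjusted p = 0.0368 after median centring; adjusted p = 0.0347 with only the groups compared) and 0.33 in the trained mean (adjusted p = 0.0311). Within groups, Dusp4 went with 7 of the 10 marker sums over the 30 libraries, among them both that define the glia-low libraries, astrocytes (Pearson's r = 0.56, adjusted permutation p = 0.0434) and oligodendrocyte precursors (0.61, 0.0315). The others were thalamus (0.65, 0.0315), oligodendrocytes (0.63, 0.0315), dentate granule cells (0.63, 0.0434), microglia (0.53, 0.0489) and endothelial and mural cells (0.50, 0.0489). No rank correlation passed (rho of 0.13 to 0.42, adjusted p from 0.204 to 0.795), and without the 2 farthest libraries r was 0.33 to 0.54. Their part in the Dusp4 values was not tested.

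Dusp5, a nuclear phosphatase specific for ERK and a target of serum response factor, lay at 10.7 ± 0.894 FPKM in VEH-HC. The range was 9.28 to 11.7 there. VEH-T10 mice had 10.5 to 15.6 FPKM, Y397F-T10 mice 9.26 to 12.3, VEH-T3 mice 8.97 to 13.04 and Y397D-T3 mice 9.69 to 16.8. In Y397D-T3, 5 of 6 mice exceeded the highest home cage mouse and the exception was the glia-low mouse 3. The difference from VEH-HC was 0.29 ± 0.11 log2 in Y397D-T3 (limma, adjusted p = 0.0955), 0.20 in VEH-T10 (adjusted p = 0.401), and 0.06 in both VEH-T3 and Y397F-T10. Without the glia-low libraries the Y397D-T3 difference was 0.37 (adjusted p = 0.0247), and it was 0.39 (adjusted p = 0.0282) after removal of the length and GC trend.

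Dusp3 encodes a small phosphatase that is not known as an immediate-early gene. Its group means stayed between 36.3 and 38.3 FPKM, and its largest fold change against VEH-HC was 0.05 log2, with a 95% interval of -0.03 to 0.13 in VEH-T3. An increase or decrease of Dusp3 of the size seen for Dusp6 thus lay outside its intervals in these comparisons.

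Spred1 and Spred2 encode membrane proteins that keep Ras and Raf inactive, Spred1 by recruiting neurofibromin to Ras. RefSeq places Spred1 at chr2:117121071-117182279 and Spred2 at chr11:19924442-20024026. Home cage mice ranged from 20.3 to 22.2 FPKM of Spred1 around a median of 21.6. VEH-T10 mice ranged from 23.0 to 25.8 (median 24.15) and Y397F-T10 mice from 23.2 to 24.98 (24.1). VEH-T3 mice ranged from 22.2 to 26.6 (24.6) and Y397D-T3 mice from 22.85 to 25.3 (24.6). All 6 mice of VEH-T10, of Y397F-T10 and of Y397D-T3 stood above every home cage mouse, a separation upward seen in 0.789%, 0.554% and 2.5% of all rows. In VEH-T3, mice 4 and 5 fell just inside the home cage range.

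Spred1 was the 1 member whose rise passed an adjusted p under 0.05 in all 4 trained groups, by a small amount of similar size. Dusp6 (0.28 to 0.53 log2) and Spred2 (0.16 to 0.26) were also higher in all 4, but did not pass in the 10 min groups. After 10 min of training the increase of Spred1 was 0.17 ± 0.04 log2 with vehicle (limma, adjusted p = 0.0446) and 0.17 ± 0.04 with Y397F (adjusted p = 0.0491). After 3 min it was 0.18 ± 0.04 with vehicle (adjusted p = 0.0168) and 0.19 ± 0.04 with Y397D (adjusted p = 0.00870). In the trained mean it was 0.18 ± 0.03 (adjusted p = 0.00237), with 22 of 24 trained mice above the highest home cage mouse. The calls in the 10 min groups lay at the threshold. The VEH-T10 call held in 13 of 30 fits that left out 1 library, with adjusted p of 0.0267 to 0.129, and the Y397F-T10 call in 8 of 30, with 0.0325 to 0.137. In both, leaving out any single VEH-HC mouse ended the call. Both were also lost after median centring (adjusted p = 0.0884 and 0.109) and with the choroid plexus covariate (adjusted p = 0.118 and 0.0903), and the Y397F-T10 call also after removal of the length and GC trend (0.13, adjusted p = 0.150), with only the groups compared (adjusted p = 0.0718), without the filter (adjusted p = 0.0548) and with a pseudocount of 0.1 (adjusted p = 0.05005). The VEH-T3 call was lost without VEH-HC mouse 4 or VEH-T3 mouse 3 (highest adjusted p 0.0545), with only the groups compared (adjusted p = 0.112) and after removal of the length and GC trend (0.13, adjusted p = 0.110). The Y397D-T3 and trained-mean calls held in all 30. With the choroid plexus marker level as a covariate the Y397D-T3 difference was 0.15 (adjusted p = 0.0562).

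Spred2 behaved in a like manner with more spread. Home cage mice ranged from 23.5 to 26.6 FPKM around a median of 26.1. VEH-T10 mice ranged from 26.5 to 30.9 (median 28.5) and Y397F-T10 mice from 25.7 to 33.2 (29.6). VEH-T3 mice ranged from 26.4 to 31.9 (30.5) and Y397D-T3 mice from 26.9 to 33.5 (30.5). All 6 Y397D-T3 mice lay above every home cage mouse, and 5 of 6 in each other trained group. Spred2 rose by 0.26 ± 0.05 log2 in Y397D-T3 (limma, adjusted p = 0.00583) and by 0.23 ± 0.05 in VEH-T3 (adjusted p = 0.0171). The difference was 0.20 in Y397F-T10 (adjusted p = 0.0589) and 0.16 in VEH-T10 (adjusted p = 0.154). In the trained mean it rose by 0.21 ± 0.04 (adjusted p = 0.00372). The VEH-T3 call was lost without VEH-HC mouse 4 (adjusted p = 0.0522) and with only the groups compared in the fit (adjusted p = 0.0834). The Y397F-T10 difference passed without the glia-low libraries (0.24, adjusted p = 0.00743), after removal of the length and GC trend (0.24, adjusted p = 0.0475) and with the choroid plexus covariate (0.23, adjusted p = 0.0371).

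The 3 Sprouty genes, which encode inducible inhibitors of receptor tyrosine kinase signalling, passed in no comparison. Spry2 had group means of 17.0 to 17.7 FPKM and Spry4 of 3.09 to 3.35. Their fold changes in the trained mean were 0.02 (95% interval -0.09 to 0.13) and 0.05 (-0.06 to 0.16). Spry1 had 6.23 ± 0.357 FPKM in VEH-HC and group means of 5.45 to 6.02 in the trained groups, with a fold change in the trained mean of -0.11 (-0.32 to 0.10). The spread of Spry1 also differed between groups, which was not tested or set against all rows. Home cage mice had a coefficient of variation of 5.72%, VEH-T10 mice 14.95% and the other trained groups between 19.8% and 23.9%, and in each trained group 2 mice lay below every home cage mouse. Dusp6 was also least variable in VEH-HC (5.05%, against 7.58% to 16.6% in trained groups), while Dusp1 was most variable there (21.5%, against 7.89% to 16.6%). Spry1 also went with the library median (r = 0.75, below), and the part of library shifts in its spread was not tested.

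**Figure D3:**
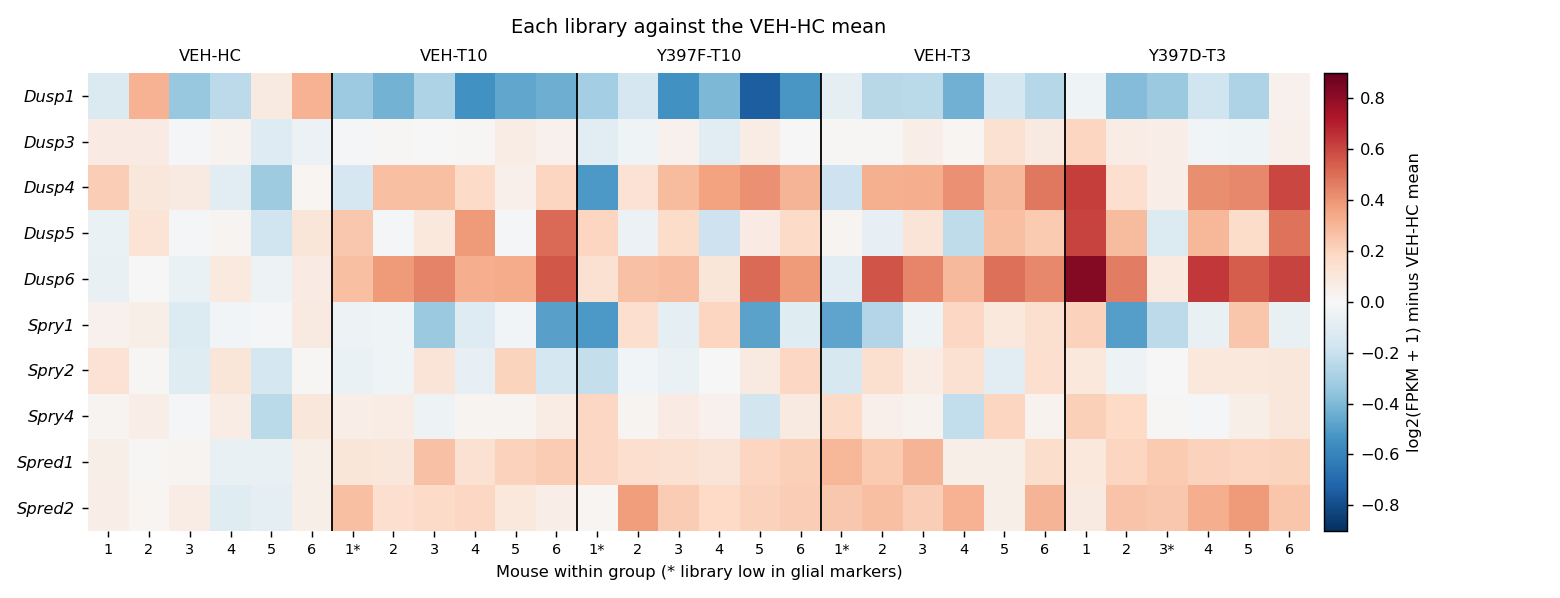
Difference of log2(FPKM + 1) from the VEH-HC mean for each member (rows) in each of the 30 libraries (columns, by group; asterisks mark the 4 glia-low libraries). Dusp6 is above the home cage mean in 23 of 24 trained libraries, and the glia-low libraries hold the lowest Dusp4 values of their groups.

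The Y397F and Y397D plasmids were compared with vehicle at the same training period. The vehicle held no DNA, so this comparison does not separate the point mutation from plasmid delivery or from added CREST. No member passed in Y397F-T10 against VEH-T10, where 0% of all rows were called, or in Y397D-T3 against VEH-T3 (0.00758%). None passed in VEH-T10 against VEH-T3 (0.0455%), or in the test of whether the Y397D difference at 3 min differed from the Y397F difference at 10 min (0.0303%). At an unadjusted p under 0.05, limma gave 0, 1, 0 and 1 members in these comparisons, in both cases Dusp5, where 3.78%, 7.87%, 8.15% and 9.08% of all rows passed. The other settings with adjusted p and every fit that left out 1 library also gave 0 members in each of them.

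For Dusp6 the Y397D plasmid differed from vehicle by 0.17 log2 with a 95% interval of -0.03 to 0.37 (adjusted p = 0.685), and the Y397F plasmid by -0.11 with an interval of -0.31 to 0.10 (adjusted p = 1.00). The difference between these 2 plasmid differences was 0.28 (-0.01 to 0.57, adjusted p = 0.565). For Dusp5 the Y397D difference was 0.23 (0.01 to 0.45), with 4 of 6 mice above the highest VEH-T3 mouse (unadjusted p = 0.0409, adjusted p = 0.625). The Y397F difference was -0.14 (-0.36 to 0.08, adjusted p = 1.00), and the difference between the 2 was 0.37 (0.05 to 0.68, unadjusted p = 0.0228, adjusted p = 0.472). Intervals were narrower for Spred1, at -0.09 to 0.08 for Y397F and -0.08 to 0.09 for Y397D, so that a plasmid effect as large as its rise over the home cage lay outside them. For Spred2 they ran from -0.06 to 0.16 and from -0.09 to 0.13, and for Dusp1 from -0.25 to 0.18 and from -0.17 to 0.25.

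**Figure D4:**
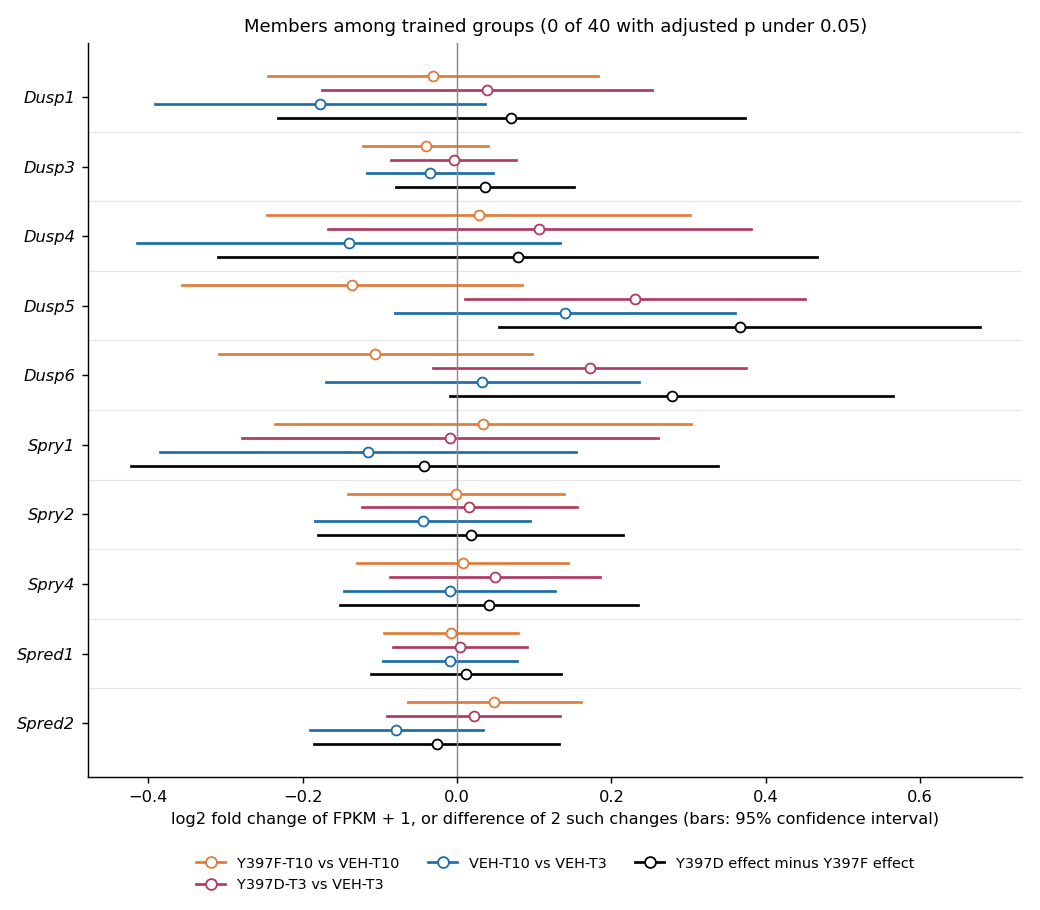
Fitted log2 fold change of FPKM + 1 of each member (horizontal axis) for each plasmid against vehicle, for 10 min against 3 min of training, and for the difference between the plasmid effects, with 95% confidence intervals. No point passed an adjusted p under 0.05, and Dusp5 has the 2 intervals that leave out 0.

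The members did not vary as 1 unit among mice of the same group. After the group mean was removed, 4 of 45 pairs of members had a Pearson's r with an adjusted p under 0.05 over 30 libraries (100000 permutations). Dusp4 went with Dusp6 (r = 0.61, adjusted p = 0.0249; rho = 0.41, adjusted p = 0.247; r = 0.51 without the 2 libraries farthest from the median) and with Spry2 (r = 0.61, adjusted p = 0.0249; rho = 0.55, adjusted p = 0.0613; r = 0.43). Dusp5 went with Spry4 (r = 0.53, adjusted p = 0.0249; rho = 0.55, adjusted p = 0.0613; r = 0.49). Spry1 and Spred1 went in opposite directions (r = -0.55, adjusted p = 0.0310; rho = -0.54, adjusted p = 0.0613; r = -0.52). With group differences left in, Spry1 went with the median log2(FPKM + 1) of each library (r = 0.75) and Spred1 against it (r = -0.45). The part of such library shifts in this pair was not tested. No rank correlation passed the adjustment.

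Marker sums moved with several members in the same way. Of 100 relations between a member and the summed markers of a cell type or region, 15 had an adjusted p of r under 0.05, and 1 passed by both r and rho. This was Dusp3 with oligodendrocyte markers (r = 0.53, adjusted p = 0.0273; rho = 0.58, adjusted p = 0.0490; r = 0.55 without the 2 farthest libraries). Of the 15, 7 were of Dusp4, 5 of Dusp6 and 2 of Dusp3, whose other was oligodendrocyte precursors (r = 0.45, adjusted p = 0.0434; rho = 0.43, adjusted p = 0.204; r = 0.40). The last was Spry2 with dentate granule cell markers (r = 0.69, adjusted p = 0.0220; rho = 0.57, adjusted p = 0.0843; r = 0.58). In the trained mean against VEH-HC, 0 of 6 oligodendrocyte precursor markers and 0 of 6 dentate markers passed the test. The part of tissue composition in the members' differences was not tested.

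Over the 30 libraries, with group differences left in and as a description, the row most like Dusp6 was Dnajb5 (r = 0.84), followed by Dgkz and Fam19a1. Dusp1 was most like Ier2, another immediate-early gene (r = 0.70), then Grm8 and Slc16a11. Dusp4 followed Epha7 (r = 0.90), Tspan5 and Lingo3, and Dusp5 followed Cacna2d3 (r = 0.76), Gpr3 and Hs3st4. Spred1 was nearest to Smg1 (r = 0.80), Usp31 and Fam135b, and Spred2 to Tnks2 (r = 0.84), Dgkh and Phf3. For Spry1 the nearest was Inpp5a (r = 0.77, then Wtip and Islr), for Spry2 Il20rb (r = 0.79, then Plk5 and Mkx), for Spry4 Vgf (r = 0.64, then Tnfrsf21 and Atg16l2) and for Dusp3 Bin1 (r = 0.73, then Ext1 and Glul). No gene appeared in the list of more than 1 member.

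The rest of the pathway was counted by list in the trained mean against VEH-HC, each with its median log2 fold change. Over all rows tested that median was -0.04, and 3.86% rose and 5.79% fell. Of 8 other dual specificity phosphatases tested, 0 rose and 1 fell (median -0.06). This was Dusp26, which fell by 0.37 ± 0.09 log2 (limma, adjusted p = 0.00886; -0.27, adjusted p = 0.0852 after removal of the length and GC trend), with 22 of 24 trained mice below every home cage mouse. Of 15 other inhibitors of the pathway 1 rose (median -0.04), Errfi1, a feedback inhibitor of the EGF receptor (0.18 ± 0.06, adjusted p = 0.0375). Of 13 receptor tyrosine kinases 1 rose (median -0.01), Ntrk3, the receptor for neurotrophin-3 (0.15 ± 0.05, adjusted p = 0.0409), a difference of -0.00 (adjusted p = 0.998) after removal of the length and GC trend and 0.13 (adjusted p = 0.114) with the choroid plexus covariate. Of 10 p38 and JNK kinases none passed (median -0.01).

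Of 30 genes of the Ras-ERK cascade itself, 3 rose and 2 fell (median 0.01). Rasgrp1, an activator of Ras, rose by 0.20 ± 0.06 log2 (adjusted p = 0.0257) and Braf by 0.12 ± 0.04 (adjusted p = 0.0315). Mapk3, which encodes ERK1, fell by 0.25 ± 0.05 (adjusted p = 0.00223), and 23 of 24 trained mice lay below every home cage mouse. Rps6ka2, a kinase downstream of ERK, fell by 0.25 ± 0.08 (adjusted p = 0.0392). After removal of the length and GC trend 4 genes rose and 0 fell, and the fold change was 0.06 for Braf (adjusted p = 0.324), -0.15 for Mapk3 (adjusted p = 0.0578) and -0.22 for Rps6ka2 (adjusted p = 0.0723). Median centring and the choroid plexus covariate also ended the calls of Braf (adjusted p = 0.0526 and 0.0760) and Rps6ka2 (adjusted p = 0.0898 and 0.154), and Rps6ka2 did not pass without the filter (adjusted p = 0.0501).

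Of 20 early genes that respond to ERK, 7 rose and 0 fell (median 0.15). Homer1, a synaptic scaffold, rose by 0.46 ± 0.06 (adjusted p = 0.000146), and all 24 trained mice lay above every home cage mouse. The share of all rows that separated in this way is not given here. Egr1, a transcription factor, rose by 0.52 ± 0.10 (adjusted p = 0.00237). The others were Egr2, Egr3, Egr4, Fos and Fosb, with 0.25 to 0.45, named after their values were seen. Of these 20 genes 2 rose in each 10 min group, 3 rose with VEH-T3 and 8 with Y397D-T3, while the shares of all rows that rose were 0.319% for VEH-T10, 0.47% for Y397F-T10, 2.23% for VEH-T3 and 3.91% for Y397D-T3. The counts were not tested against each other. Without the glia-low libraries 8 rose and 2 fell in the trained mean, where 15.7% of all rows were called. Dusp6, with 0.39, lay within the range of the 7 early genes that passed, a range set by the threshold itself. Of the 20 early genes, 13 had a fold change above 0 in the trained mean with all libraries. Among those below 0, Ier3 (-0.38, limma, adjusted p = 0.0969) and Etv1 (-0.33, adjusted p = 0.150) lay lower than Dusp1 (-0.32), without passing. These 2 were named after their values were seen.

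**Figure D5:**
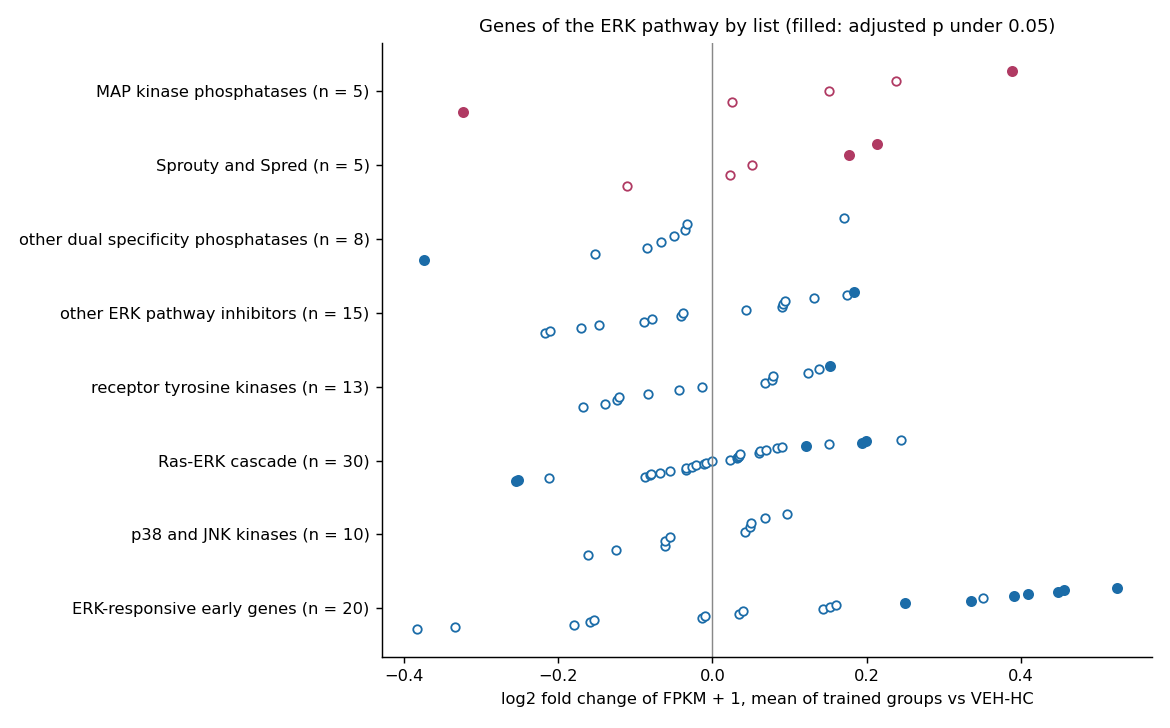
Log2 fold change of FPKM + 1 in the mean of trained groups against VEH-HC (horizontal axis) for each tested gene, by list (rows; points are staggered by rank within a row), filled where the adjusted p was under 0.05. The early genes reach furthest above 0, with 7 of 20 filled, and Dusp1 and Dusp26 lie furthest below 0 among the filled points.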

How the data were processed

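RNA of 30 mice was measured in 5 groups of 6. The authors aligned paired-end reads to mm10 with TopHat2 2.1.1 and computed FPKM with Cufflinks 2.2.1, and the deposited FPKM were used without further scaling. All 30 columns were used and 0 left out. Reads came from 2 platforms not assigned to libraries, so no sequencing batch could be fitted. FPKM hold no read totals, so absolute depth is unknown, and precision is given by the spread among 6 mice. Values were tested as log2(FPKM + 1) with limma 3.58.1 in R 4.3.3, over 13184 rows with a mean of at least 1 FPKM, all groups in 1 fit with a mean-variance trend and Benjamini-Hochberg adjustment. The authors' own test, Cyber-T, was not run. Fold changes on this scale understate those of low genes. The fit was tested on simulated data with independent noise per gene and shifts planted in VEH-T10 against VEH-HC. Those shifts were larger than most differences of the members. Shared library shifts and tissue composition were not simulated.

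The members and lists were chosen with earlier results of these data known. All members are named in every comparison, with the 2 raised and 2 lowered genes of each other list with the smallest adjusted p in the trained mean, and the 3 rows most like each member. The alternatives are a pseudocount of 0.1, no filter on level, median centring, only the groups compared, a replicate block, summed symbols, unadjusted p and leaving out each library. Chosen after seeing the data were removal of a length and GC trend (GENCODE M21), leaving out the 4 glia-low libraries and a choroid plexus covariate. Correlations used 100000 permutations.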

Additional observations from a re-analysis of the deposited data

Results flagged for a closer look

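In 4 of 50 sets of 6 values (10 members in 5 groups) the lowest mouse stood farther from the rest than Dixon's test allows at 95%, where chance gives about 2.5. Dusp4 was 7.68 FPKM in VEH-T3 mouse 1, a glia-low library, against 11.1 to 12.7 in the others. Spry4 was 2.44 FPKM in VEH-HC mouse 5, Spred1 22.85 in Y397D-T3 mouse 1 and Spred2 26.4 in VEH-T3 mouse 5.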

How the results depend on the processing

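Against VEH-HC, 1 member was called for VEH-T10, 2 for Y397F-T10, 3 for VEH-T3, 3 for Y397D-T3 and 4 for the trained mean. In VEH-T10 the count was 2 with the replicate block, with only the groups compared or with the length and GC trend removed, 3 without the glia-low libraries, 0 with the choroid plexus covariate and 4 by unadjusted p. Centring kept it at 1, with Dusp6 in place of Spred1. In Y397F-T10 it was 1 with a pseudocount of 0.1, without the filter, with the length and GC trend removed or with the choroid plexus covariate, 0 after centring or with only the groups compared, 5 without the glia-low libraries and 4 by unadjusted p. In VEH-T3 it was 0 with only the groups compared and 5 by unadjusted p. In Y397D-T3 it was 5 with the length and GC trend removed, without the glia-low libraries or by unadjusted p. By unadjusted p, Y397D-T3 against VEH-T3 and the difference between plasmid effects each had 1.

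Leaving out 1 library gave 0 to 3 members in VEH-T10, 0 to 3 in Y397F-T10, 0 to 3 in VEH-T3, 3 to 5 in Y397D-T3, 3 to 5 in the trained mean, and 0 to 0 in the other comparisons. VEH-T10 had 0 without VEH-HC mouse 1, 2, 5 or 6, VEH-T10 mouse 2, 3, 4, 5 or 6, Y397F-T10 mouse 3, VEH-T3 mouse 6 or Y397D-T3 mouse 4, 5 or 6, 3 without mouse 1 of VEH-T10, Y397F-T10 or VEH-T3, and 2 without Y397F-T10 mouse 2 or Y397D-T3 mouse 1, 2 or 3. Y397F-T10 had 0 without VEH-HC mouse 2, 4, 5 or 6 or Y397F-T10 mouse 3, 4, 5 or 6, and 1 without VEH-HC mouse 1 or 3, VEH-T10 mouse 1, 2, 4, 5 or 6, Y397F-T10 mouse 2, VEH-T3 mouse 6 or Y397D-T3 mouse 2, 3, 4, 5 or 6. VEH-T3 had 0 without VEH-HC mouse 4 and 1 without its own mouse 3, and Y397D-T3 had 5 without its own mouse 3. Of 3590 alternative values of 90 fold changes, 0 called values changed sign and 123 uncalled ones did. The cause of these changes was not tested. Over all rows, 108 were called for VEH-T10 (46 after centring, 68 with the choroid plexus covariate, 162 with the replicate block, 786 without the glia-low libraries), 149 for Y397F-T10 (42 after centring, 74 with the length and GC trend removed, 253 with the covariate, 890 without the glia-low libraries), 681 for VEH-T3 (341 after centring, 215 with the trend removed, 1660 without the glia-low libraries), 932 for Y397D-T3 (490 with the covariate, 1405 without the glia-low libraries) and 1273 for the trained mean (2079 without the glia-low libraries). The 6 rows called in VEH-T10 against VEH-T3, the 1 in Y397D-T3 against VEH-T3 and the 4 in the difference between plasmid effects fell to 0 after centring, with the block or with the trend removed.

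Replicate numbers are shared by the groups, and no label says that they pair the mice. Of 60 same-number pairs 24 had a correlation over 0.1 (median 0.042, against 0.0065 for other numbers), with a range of -0.50 to 0.84. Of 30 libraries, 8 correlated best with their own number. Mouse 1 of VEH-T10, of Y397F-T10 and of VEH-T3 were glia-low libraries. Whether a number marks a shared batch was not tested. With the replicate block 2 members passed in VEH-T10, and the counts of the other comparisons were the same. The added member was Dusp1 (adjusted p = 0.0425), and in the trained mean the block ended the calls of Errfi1 (adjusted p = 0.0577) and Ntrk3 (adjusted p = 0.0527). What limits these results is 6 mice per group, 1 shared control group, bulk tissue of varying composition and no read totals.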
